A study of Mus musculus with 8 samples.

Results

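The genes described here encode voltage-gated sodium channels, voltage-gated calcium channels, hyperpolarization-activated HCN channels and transient receptor potential (TRP) channels. They were chosen by name: every probe on the array, control spots aside, whose gene name was *Scn* with a number and the letter a or b, began with *Cacna* or *Cacnb*, was *Hcn* with a number, or was *Trpa*, *Trpc*, *Trpm* or *Trpv* with a number. This gave 88 probes of 57 genes, out of 55681 probes and 21071 named genes on the array. The sodium channel gene *Scn2a* carries an older name on the array, *Scn2a1*, that does not meet the rule, and it was counted among the partner genes. The data came from the hypothalamus of 8 male C3H/Hen mice, 1 array per mouse. The Ctrl group held 4 control mice (6.2, 8.2, 8.4 and 8.5). The Stress group held 4 mice (5.3, 7.1, 7.2 and 7.6) that went through maternal separation (MS) together with chronic unpredictable stress of the dam, from postnatal day (PND) 2 to 14. Weaning took place at PND 21, and Ctrl and Stress mice were housed apart from then on. They were adults that had been tested for food reward and were food-deprived before the dissection, as the methods of the study say. Litter and cage are not in the labels, and no mouse number of one group has the same digit before the dot as a number of the other group, so an effect of litter or cage cannot be told apart from the condition.

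Sodium channels carry the upstroke of the action potential, and their pore-forming alpha subunits are joined by small beta subunits that set gating and position in the membrane. Calcium channels couple membrane voltage to transmitter and hormone release, firing pattern and gene expression, with a pore-forming alpha1 subunit and auxiliary alpha2delta and beta subunits. HCN channels open on hyperpolarization and drive pacemaker firing, and TRP channels respond to temperature, osmolarity, lipids and receptor signaling. In the hypothalamus these families are known for their part in the rhythmic and burst firing of neurosecretory neurons and in the sensing of salt, osmolarity and body temperature.

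The signal of a probe was put on a log2 scale relative to the 75th percentile of its array, so a value of 0 equals that percentile and a difference of 1 is a doubling. Values of different probes are not comparable in level. The 8 arrays had 34079 to 39601 probes well above background, and their 75th percentiles of signal were between 853 and 967 for Ctrl and between 567 and 1018 for Stress, lowest in Stress 7.6. The arrays lay in 2 rows of 1 slide, with 2 mice of each group in each row. Of the markers of the hypothalamus, 16 of 16 were measured, with neuropeptides such as *Hcrt*, *Avp* and *Oxt* among them, at a summed level of 450 to 514 times the 75th percentile in the Ctrl mice and 365 to 522 times in the Stress mice. The list was lowest in Stress 7.2 (-0.23 from the mean of the 8 mice, log2 scale, mean over the list) and Stress 5.3 (-0.17). *Hcrt*, the orexin precursor, was 3.29 in Stress 5.3 and 3.36 in Stress 7.2 against 5.33 to 6.47 in the other 6 mice, so that these Stress mice stood apart (difference of the groups -1.44 ± 0.62, limma adjusted p = 0.981). *Hcrt* and *Pmch* (-0.46) were lower and *Hdc* (0.22) and *Npy* (0.19) higher in the Stress mice at an unadjusted p under 0.05 (limma). These were 4 of 16 genes, against 2.57% of all tested genes, and none passed after adjustment. Markers of the meninges were 8 of 8 measured, at 10.8 to 26.9 times in the Ctrl mice and 10.6 to 27.1 times in the Stress mice, and they were highest in Stress 7.6 (0.84 above the mean) and Ctrl 8.5 (0.76 above). Markers of the pituitary were 6 of 8 measured, at 16.4 to 258 times in the Ctrl mice and 18.6 to 29.4 times in the Stress mice, the high value being that of Ctrl 6.2. Markers of oligodendrocytes were 10 of 10 measured, at 135 to 187 times in the Ctrl mice and 168 to 177 times in the Stress mice, and Ctrl 8.5 was lowest (-0.33 from the mean). Markers of cortex, hippocampus and amygdala were 7 of 8 measured, at 6.78 to 7.59 times in the Ctrl mice and 5.78 to 7.72 times in the Stress mice, and again Ctrl 8.5 was lowest by the mean over the list (-0.43). Markers of the choroid plexus were 8 of 8 measured. Their summed level was 4.98 to 6.97 times in the Ctrl mice and 6.1 to 6.9 times in the Stress mice, lowest in a Ctrl mouse. By the mean over the list, however, Stress 7.1 was lowest (-0.50) and Ctrl 6.2 highest (0.35). In the other 6 lists no mouse was farther from the mean than Ctrl 8.5 was for neurons (-0.15). Outside the hypothalamus list, *Aqp4* of the astrocytes (0.26) and *Tshb* of the pituitary (-2.19) also had an unadjusted p under 0.05 (limma). Neither passed after adjustment. The part of any of these cells in the channel values was not tested.

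Channel transcripts were measured for 52 of the 57 genes. A probe was tested when 4 or more of the 8 arrays had it well above background, which held for 77 of the 88 channel probes (87.5%) and for 67.0% of all probes. 72 channel probes were well above background on all 8 arrays, 81 on at least 1 array and 7 on 0 arrays. All sodium channel beta, alpha2delta, calcium channel alpha1 and beta, TRPC and TRPA genes had a probe that was tested. The 5 genes that were not tested were *Scn10a*, the sodium channel of pain-sensing neurons, *Hcn4*, the pacemaker channel of the sinus node, *Trpm5*, the channel of taste cells, *Trpv3*, the warmth-activated channel of skin, and *Trpv5*, the calcium channel of the kidney. Each of them had 1 probe that was well above background on 0 of 8 arrays, so no level or difference can be given for them. *Cacna1c*, *Cacna1e* and *Trpm8* were measured above background on 7 arrays and *Trpv1* on 6.

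**Figure D1:**
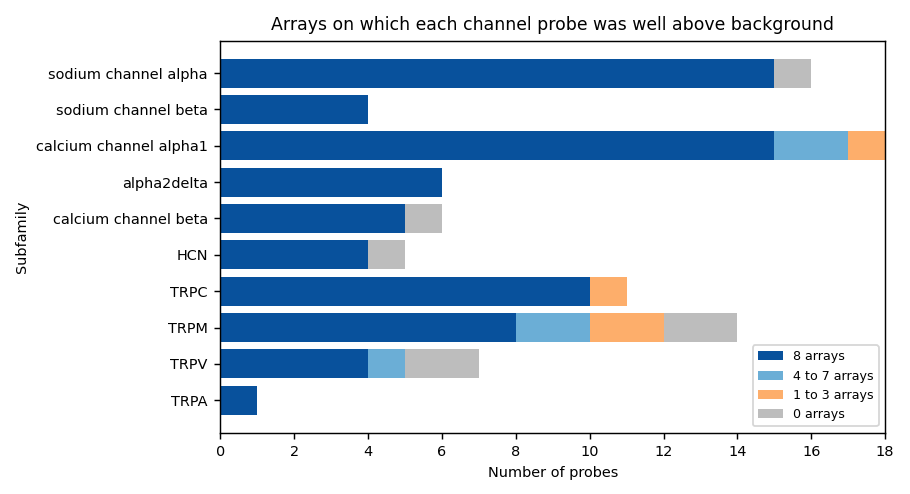
Number of channel probes per subfamily (horizontal axis), colored by the number of arrays on which the probe was well above background. Of 88 probes 72 reached this on all 8 arrays and 7 on 0 arrays, and the probes below 8 arrays lay mostly in the TRPM, TRPV and calcium channel alpha1 genes.

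Probes of the same gene could differ in whether they were measured above background, and the probes of *Trpc7* and *Trpm1* are shown for that reason. Each probe is 60 bases long, and 30 bases of each are given here, 5′ to 3′ as the array files give them, with their position on mouse build mm9. *Trpc7*, a channel opened by diacylglycerol, has a pair of probes that share 55 bases and are shifted by 5 bases. The first was well above background on all 8 arrays and the second on 2 arrays (1 Ctrl and 1 Stress). The capitals mark the 25 bases that both printed stretches hold, at chr13:56874504-56874533 and chr13:56874499-56874528, minus strand.
*Trpc7*, probe measured on 8 arrays: tacctTTATTATCTTGTATTTACTATTTTT
*Trpc7*, probe measured on 2 arrays: TTATTATCTTGTATTTACTATTTTTaccta
The values of *Trpc7* below therefore rest on a single one of its overlapping probes. With 21.7% and 20% G and C, these probes were at the low end of the channel probes, which ranged from 20% to 81.7%.

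*Trpm1*, the channel of retinal bipolar cells and pigment cells, has 4 probes, of which 1 was tested. That probe was well above background on 8 arrays, the second and the third on 1 array each, and the fourth on 0 arrays. The capitals mark the longest run of A and G in each probe, in the order chr7:71371626-71371655, chr7:71369574-71369603, chr7:71363401-71363430 and chr7:71413970-71413999, all on the plus strand.
*Trpm1*, probe measured on 8 arrays: AAGAAGAAAAAGAAGAAGAAGAAAGAGGAA
*Trpm1*, first probe measured on 1 array: ctatatatacctttgtcattctgtGGAAGc
*Trpm1*, other probe measured on 1 array: aacttctGAGccaactccatggcctctttg
*Trpm1*, probe measured on 0 arrays: gacaaaacacccagcAAGAGAAAAGAAGcg
The run of A and G in the measured probe goes on beyond the printed stretch and is 34 bases long, against a median of 6 bases over all probes. Of 55681 probes 66 (0.119%) have a run at least as long, and this is the only channel probe among them. Whether the signal of this probe comes from *Trpm1* transcripts was not tested. Probes of the same gene also parted for *Cacna1f*, the L-type channel of photoreceptors (8 and 2 arrays), for *Cacnb2* (8, 8 and 0 arrays) and for *Trpm3* (8, 8 and 4 arrays).

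In the comparison of Stress with Ctrl, which asks whether early stress left a lasting difference in these transcripts, 0 of the 77 channel probes passed an adjusted p of 0.05 (limma with Benjamini-Hochberg adjustment over all 37314 tested probes, where 0 probes or 0% passed). The smallest adjusted p of a channel probe was 0.981. At an unadjusted p under 0.05 there were 4 channel probes, or 4 of the 52 genes, against 3.3% of all tested probes and 2.57% of all tested genes. Of the 52 genes 25 had a higher mean in the Stress mice and 27 a lower one, beside 9391 and 7214 of all 16605 tested genes. Scaling to the median of the array gave 29 and 23, and normexp background correction 27 and 25. Quantile normalization gave 22 and 30, and the authors' table, which holds 50 of the genes, 20 and 30. In the reported fit the median difference of the 52 genes was -0.0065 on the log2 scale, beside 0.013 over all 16605 tested genes. In whole hypothalamus, fewer cells of a type and less RNA per cell cannot be told apart. The difference of a gene, taken without its sign, had a median of 0.084, against 0.057 over all genes. The 95% confidence interval of the difference lay within 1.5-fold in either direction for 44 of the 52 genes (84.6%, against 89.3% of all genes) and within 2-fold for 48 (92.3%, against 96.3%).

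**Figure D2:**
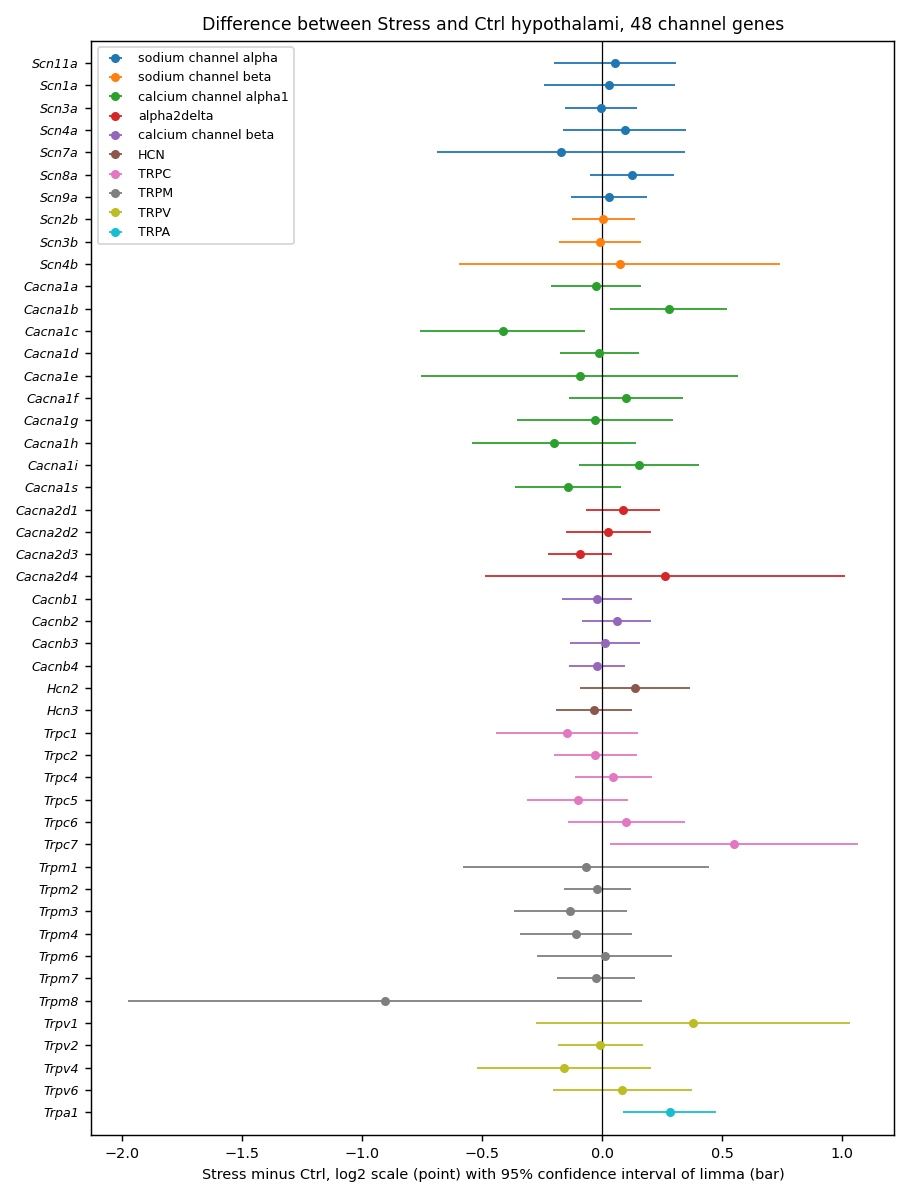
Difference between the Stress and Ctrl means of 48 channel genes (point, log2 scale) with the 95% confidence interval of limma (bar), colored by subfamily, 4 mice per group. The intervals of *Cacna1b*, *Cacna1c*, *Trpc7* and *Trpa1* leave out 0 before adjustment, and those of *Trpm8*, *Cacna2d4* and *Trpv1* are among the widest.

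*Trpa1*, the receptor of pungent irritants, had the smallest p of all channel genes. Its values were -3.64, -3.68, -3.59 and -3.32 in Ctrl 6.2, 8.2, 8.4 and 8.5, and -3.27, -3.26, -3.24 and -3.34 in Stress 5.3, 7.1, 7.2 and 7.6. The Stress mice lay close together and above all Ctrl mice but 8.5, which fell between Stress 7.6 and the others. The difference was 0.28 ± 0.084 (log2, SE, n = 4 per group, limma adjusted p = 0.981), and an exact two-sided permutation test of the 8 values gave p = 0.0571. The difference was 0.38 in slide row 1 and 0.19 in slide row 2. Its only probe begins as follows, at chr1:14862812-14862841 on the minus strand.
*Trpa1*: gcagaaattcactgttccttcctcaaattt

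*Cacna1c*, which encodes the main L-type calcium channel of brain and heart, was the only channel gene whose groups did not overlap, 1 of 52 genes against 1.88% of all tested genes. Its values were -4.47, -4.72, -5.07 and -5.14 in Ctrl 6.2, 8.2, 8.4 and 8.5, and -5.40, -5.18, -5.15 and -5.33 in Stress 5.3, 7.1, 7.2 and 7.6. All Stress mice were lower, yet the nearest mice of the groups, Ctrl 8.5 and Stress 7.2, were almost at the same value, and much of the distance came from Ctrl 6.2 and 8.2. The difference was -0.42 ± 0.15 (log2, SE, n = 4 per group, limma adjusted p = 0.981). The exact permutation test gave p = 0.0286, the smallest p that 4 against 4 mice can give. This probe was dim, being well above background in 3 of the 4 Stress mice, and its difference was -0.068 after normexp background correction and -0.12 in the authors' table. The first bases of the probe lie at chr6:118544109-118544138 on the minus strand.
*Cacna1c*: tgacgcctgcgacatgacaatagaggagat

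*Cacna1b*, the N-type channel that triggers transmitter release, was higher on average in the Stress mice. Its values were -4.63, -4.49, -4.66 and -4.84 in Ctrl 6.2, 8.2, 8.4 and 8.5, and -4.59, -4.43, -4.33 and -4.18 in Stress 5.3, 7.1, 7.2 and 7.6. Stress 7.6 was the highest and Ctrl 8.5 the lowest, and Ctrl 8.2 lay above Stress 5.3, so the groups overlapped. The difference was 0.28 ± 0.11 (log2, SE, n = 4 per group, limma adjusted p = 0.981, exact permutation p = 0.0571), with 0.12 in slide row 1 and 0.43 in slide row 2. This probe was dim, and its difference was 0.18 after normexp background correction and 0.18 in the authors' table. The only probe of *Cacna1b* begins at chr2:24473235-24473264 on the minus strand.
*Cacna1b*: tatttgacttctacaaacagaacaaaacca

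*Trpc7* had the largest positive difference of the channel genes in this fit. Its values were -4.35, -4.08, -4.66 and -4.10 in Ctrl 6.2, 8.2, 8.4 and 8.5, and -4.21, -3.91, -3.70 and -3.17 in Stress 5.3, 7.1, 7.2 and 7.6. Stress 7.1, 7.2 and 7.6 were above all Ctrl mice, while Stress 5.3 lay among them. The difference was 0.55 ± 0.22 (log2, SE, n = 4 per group, limma adjusted p = 0.981, exact permutation p = 0.0857). Without Stress 7.6 it was 0.36, and it was 0.32 after normexp background correction.

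**Figure D3:**
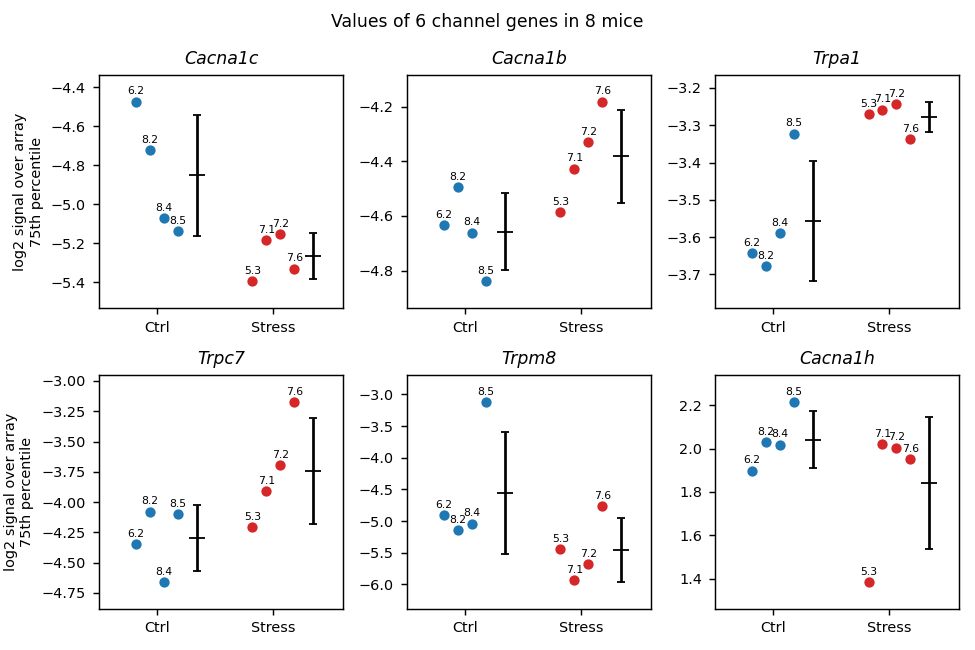
Values of 6 channel genes in the 8 mice (log2 signal relative to the 75th percentile of the array), with the number of each mouse and, beside the points, the mean and SD of the group (n = 4). *Cacna1c* is the gene without overlap, and Ctrl 8.5 in *Trpm8* and Stress 5.3 in *Cacna1h* stand apart from their groups.

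Among the sodium channel alpha genes 6 of 8 had a higher and 2 a lower mean in the Stress mice (median difference 0.041). Of all 16605 tested genes 9391 had a higher mean. The authors' table gave 5 higher and 3 lower, and scaling to the median of the array 7 and 1. In the reported fit 0 of the 8 had an unadjusted p under 0.05. *Scn8a*, the main sodium channel of the axon initial segment, had the smallest p of the subfamily, with 0.76 to 1.03 in the Ctrl mice and 0.91 to 1.08 in the Stress mice and a difference of 0.12 ± 0.076 (adjusted p = 0.981). The range of the Stress mice was narrower and overlapped that of the Ctrl mice through Ctrl 8.5. Another of the 3 tested *Scn8a* probes differed by -0.091, in the opposite direction. *Scn1a*, the channel of fast-spiking inhibitory neurons, differed by 0.029 ± 0.12, with 2.52 in Ctrl 8.5 and 2.77 to 3.06 in the other 7 mice. *Scn3a*, a channel most prominent before birth, differed by -0.0055 ± 0.066, and its 5 tested probes ranged from -0.12 to 0.058. *Scn9a*, known from pain-sensing neurons and also present in hypothalamic neurosecretory cells, differed by 0.028 ± 0.069.

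*Scn7a* encodes the sodium-level sensor of glia and of the organs around the ventricles. Its values were -3.41, -3.42, -3.54 and -3.37 in Ctrl 6.2, 8.2, 8.4 and 8.5, and -3.44, -4.36, -3.27 and -3.35 in Stress 5.3, 7.1, 7.2 and 7.6. All mice but Stress 7.1 were close together, and the difference of -0.17 ± 0.22 became 0.081 without that mouse. By the mean over the list Stress 7.1 also had the lowest choroid plexus markers, but not by their summed level. Of the beta subunits, *Scn2b* and *Scn3b* differed by 0.0051 and -0.0088, with SDs of 0.055 and 0.089 over the 8 mice. *Scn4b*, a beta subunit of neurons that fire resurgent currents, was -0.49, -0.43, 0.075 and -1.49 in Ctrl 6.2, 8.2, 8.4 and 8.5, and -0.59, -0.65, -0.48 and -0.31 in Stress 5.3, 7.1, 7.2 and 7.6. Both the highest and the lowest mouse belonged to the Ctrl group, so the difference of 0.073 ± 0.29 became -0.23 without Ctrl 8.5 and 0.29 without Ctrl 8.4.

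The calcium channel alpha1 genes had 3 higher and 7 lower means in the Stress mice (median difference -0.028, and 5 of each after normexp background correction). Of all 16605 tested genes 7214 had a lower mean. *Cacna1b* and *Cacna1c* were the 2 genes of the subfamily at an unadjusted p under 0.05. *Cacna1a*, the P/Q-type channel of synaptic terminals, differed by -0.026 ± 0.081, and *Cacna1d*, the L-type channel that opens at low voltage, by -0.012 ± 0.072. For *Cacna1e*, the R-type channel, the mice spread from -5.86 in Stress 7.6 to -4.39 in Stress 7.2 around a difference of -0.094 ± 0.29. Of the T-type channels, which open near rest and give rise to burst firing, *Cacna1g* differed by -0.031 ± 0.14, *Cacna1h* by -0.20 ± 0.15 and *Cacna1i* by 0.15 ± 0.11. Without Stress 7.6 *Cacna1g* differed by 0.088 and *Cacna1i* by 0.078.

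The mean of *Cacna1h* rested on 1 mouse. Its values were 1.90, 2.03, 2.02 and 2.22 in Ctrl 6.2, 8.2, 8.4 and 8.5, and 1.39, 2.02, 2.00 and 1.95 in Stress 5.3, 7.1, 7.2 and 7.6. Without Stress 5.3, which was far below all others, the difference was -0.049. The other tested probes of *Cacna1h* did not place Stress 5.3 apart, at -3.25 in a range of -3.71 to -2.93 over the 8 mice for one and at -3.68 in a range of -3.96 to -3.65 for the other.

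Of the 8 auxiliary calcium channel subunits, 7 had an SD over the mice below the median of the channel genes. *Cacna2d1*, the alpha2delta subunit that binds gabapentin, was 3.53 to 3.79 in the Ctrl mice and 3.73 to 3.81 in the Stress mice, a difference of 0.086 ± 0.067, while its other tested probe differed by -0.049. *Cacna2d3* differed by -0.091 ± 0.058. *Cacna2d4* was the exception, with -2.24 in Stress 7.1 and -3.85 to -3.19 in the other 7 mice. Its difference of 0.26 ± 0.33 became -0.082 without Stress 7.1, the mouse lowest in choroid plexus markers by the mean over the list. The 4 beta subunits differed by -0.024 to 0.060, with *Cacnb2* at 0.060 ± 0.063 and *Cacnb4* at -0.024 ± 0.051. The SD of *Cacnb4* over the 8 mice, 0.037, was the smallest of the 52 genes, and 1.22% of all tested genes had an SD as small or smaller.

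Of the HCN genes *Hcn2*, the widely expressed neuronal form, was 4.10 to 4.32 in the Ctrl mice and 4.13 to 4.51 in the Stress mice, a difference of 0.14 ± 0.10. The ranges overlapped, although Stress 5.3 and Stress 7.6 were above all Ctrl mice. *Hcn3* differed by -0.035 ± 0.069. Both had an adjusted p of 0.981, and the 95% confidence interval of *Hcn3* ran from -0.19 to 0.12.

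The 7 TRPC genes had 4 higher and 3 lower means in the Stress mice (median difference 0.046). *Trpc4* and *Trpc5*, channels coupled to receptors that signal through phospholipase C and known from hypothalamic neurons that respond to leptin, differed by 0.046 ± 0.070 and -0.10 ± 0.092. *Trpc1*, which joins other TRPC subunits, differed by -0.15 ± 0.13.

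Of the 7 tested TRPM genes 6 had a lower mean in the Stress mice and 1 a higher one (median difference -0.068), where 7214 of all 16605 tested genes had a lower mean. After normexp background correction 5 were lower and 2 higher. None of the 7 had an unadjusted p under 0.05, and no test was made of the subfamily. *Trpm8*, the receptor of cold and menthol, had the largest difference in size of the channel genes and the largest spread. Its values were -4.90, -5.15, -5.04 and -3.12 in Ctrl 6.2, 8.2, 8.4 and 8.5, and -5.44, -5.94, -5.68 and -4.77 in Stress 5.3, 7.1, 7.2 and 7.6. Ctrl 8.5 was far above the other mice and Stress 7.6 came next, so that the groups overlapped. The difference was -0.90 ± 0.47 (log2, SE, limma adjusted p = 0.981, exact permutation p = 0.114). It was -0.43 without Ctrl 8.5 and -0.26 after normexp background correction. Ctrl 8.5 and Stress 7.6 also had the highest meningeal markers. By the mean over each list, Ctrl 8.5 had the lowest markers of oligodendrocytes and of cortex, hippocampus and amygdala.

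*Trpm2*, a heat-sensing channel of preoptic neurons, differed by -0.020 ± 0.061, and its SD over the 8 mice was 0.063. *Trpm3*, a channel opened by heat and neurosteroids, was -1.70 to -1.25 in the Ctrl mice and -1.71 to -1.48 in the Stress mice, a difference of -0.13 ± 0.10. Its highest mouse was again Ctrl 8.5, also by another tested probe of the gene, at -1.82 against -3.23 to -2.68 in the other mice. *Trpm6*, a magnesium channel, was the 1 gene of the subfamily with a higher mean, by 0.0097 ± 0.12.

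The TRPV genes had 2 higher and 2 lower means in the Stress mice. *Trpv1*, the capsaicin receptor, was -6.37 to -5.26 in the Ctrl mice and -5.78 to -4.85 in the Stress mice, a difference of 0.38 ± 0.29 that was 0.15 without Ctrl 8.5. The difference of *Trpv1* was 0.17 after normexp background correction and 0.14 in the authors' table. Its probe was well above background in 3 mice of each group. *Trpv4*, a channel that responds to swelling and warmth, was -1.79, -1.58, -1.58 and -1.29 in Ctrl 8.2, 8.4, 6.2 and 8.5, and -1.98, -1.89, -1.68 and -1.34 in Stress 7.1, 7.2, 5.3 and 7.6. The highest mouse of each group was the one with the highest meningeal markers, Ctrl 8.5 and Stress 7.6. The difference was -0.16 ± 0.16 for this probe and -0.47 ± 0.22 for the other probe of *Trpv4*, which has an unadjusted p of 0.069.

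The SD of a channel gene over the 8 mice had a median of 0.15, against 0.11 over all tested genes, and ranged from 0.037 in *Cacnb4* to 0.86 in *Trpm8*. *Trpm8*, *Cacna2d4*, *Trpv1*, *Trpc7*, *Scn4b* and *Cacna1e* had an SD above that of 95% of all genes. All of these but *Scn4b* (Ctrl mean -0.58) had dim probes, with Ctrl means from -5.67 in *Trpv1* to -3.53 in *Cacna2d4*. *Trpm8* and *Cacna1e* were well above background on 7 arrays and *Trpv1* on 6. The part of the dim signal in these SDs was not tested. Within its own group, Stress 7.6 was the mouse farthest from the mean of the others for 14 of the 52 genes and Ctrl 8.5 for 13, while each other mouse was so for 2 to 6 genes. Stress 7.6 had the dimmest array, and both mice had the highest meningeal markers. Leaving out both mice together, which was chosen after the values were seen, left 0 channel probes at an adjusted p of 0.05 (limma) and 5 at an unadjusted p under 0.05, where 3.99% of all tested probes were.

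**Figure D4:**
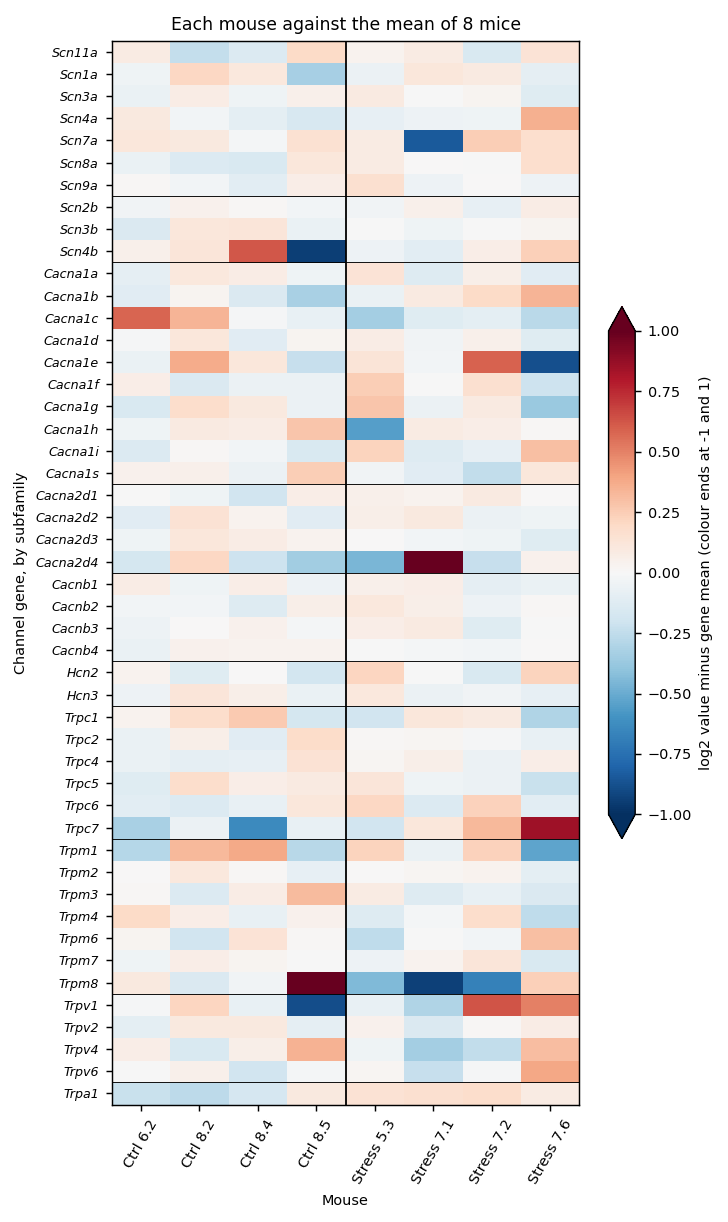
Value of 48 channel genes in each mouse minus the mean of the 8 mice (log2 scale, red higher and blue lower, colors end at -1 and 1), with genes in rows by subfamily and a line between Ctrl and Stress. Strong colors lie in single cells, such as *Trpm8* in Ctrl 8.5, *Scn7a* in Stress 7.1 and *Cacna2d4* in Stress 7.1, rather than along a whole group.

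The slide row was compared by overlap in the same way as the condition. For limma the row was fitted with the group in the model, whereas the reported fit of the condition leaves out the row. For 7 of the 52 genes the 4 mice of slide row 1 did not overlap with the 4 of row 2, against 4.65% of all tested genes, and 1 gene did not overlap between the conditions. 6 genes were higher in row 1, against 2.73% of all, *Cacna1a*, *Cacna1e*, *Cacna1g*, *Hcn3* and *Trpm1* among them, and *Scn11a*, a sodium channel of sensory neurons, was higher in row 2, 1 gene against 1.92%. *Trpm1*, singled out after its values were seen, was 2.19 to 2.34 in row 1 and 1.43 to 1.89 in row 2. As the rows did not overlap, the mice of both groups in a row lay on the same side of this gap. The row difference was 0.58 ± 0.10 (limma with the group in the model, unadjusted p = 0.00062, adjusted p = 0.456). *Cacna1a* was 1.88 to 1.96 in row 1 and 1.70 to 1.79 in row 2, a row difference of 0.18 ± 0.052 (adjusted p = 0.622). No channel probe passed an adjusted p of 0.05 for the row, as none of all tested probes did (0%). At an unadjusted p under 0.05 (limma) there were 7 of the 77 channel probes against 7.08% of all tested probes, near the share of the array. By overlap, the share of channel genes, 7 of 52, was above the 4.65% of all tested genes, and the cause was not tested.

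**Figure D5:**
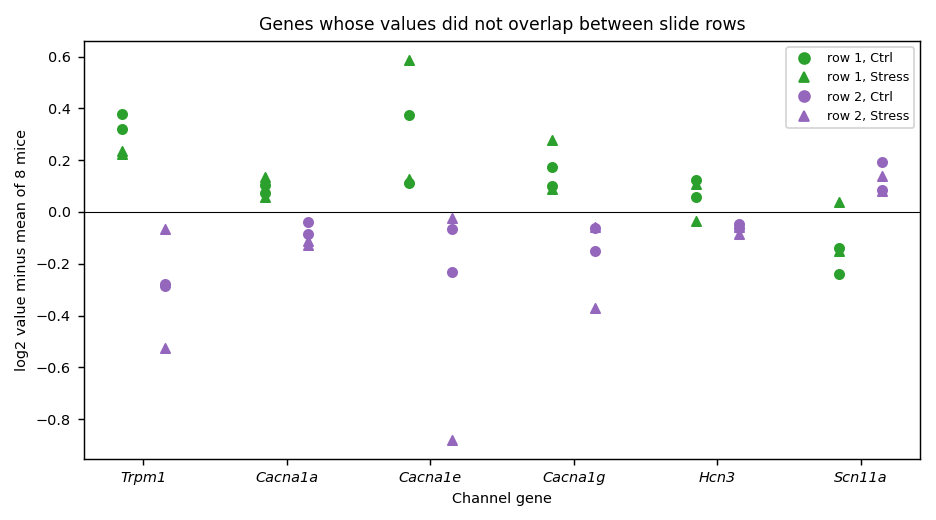
Values of 6 channel genes whose mice did not overlap between the slide rows, as the difference from the mean of the 8 mice (log2 scale), green for row 1 and violet for row 2, circles for Ctrl and triangles for Stress. Because the genes were picked for rows without overlap, the circles and triangles of a row always lie on the same side of the other row. *Scn11a* is the 1 gene higher in row 2.

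Since each row held both groups, the comparison of Stress with Ctrl could be made within each row. The direction was the same in both rows for 26 of the 52 genes. Among these 26, *Trpa1*, *Trpc7* and *Cacna1b* were higher and *Cacna1c*, *Trpm8* and *Trpv4* lower in the Stress mice in both rows. Each of these named genes had the smallest p in its direction of its subfamily in the same mice. A shared direction in both rows was therefore likely for them and is not a separate test. With the row as a block there were again 0 channel probes at an adjusted p of 0.05 and 4 at an unadjusted p under 0.05 (3.72% of all tested probes). Row 1 held Stress 5.3 and Stress 7.2, the mice with low *Hcrt*. In row 2 alone, which held neither, 0 channel probes passed an adjusted p of 0.05 and 1 had an unadjusted p under 0.05 (3.15% of all tested probes).

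Several probes of the same gene could also be compared. 18 channel genes had at least 2 tested probes, and the direction was the same for all probes of 11 of them and mixed for 7. The gap between the lowest and the highest difference of a gene had a median of 0.12 and reached 0.40 in *Trpm3*.

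Genes of proteins that work with these channels, or resemble them, were counted beside them. Of 72 partner and related genes (auxiliary gamma subunits, anchoring proteins, calmodulins, store-operated and intracellular calcium channels, cyclic nucleotide-gated channels and other TRP relatives) 66 were tested, of which 34 had a higher and 32 a lower mean in the Stress mice, with a median difference of 0.0080. 0 passed an adjusted p of 0.05 (limma), and 1 of the 66 had an unadjusted p under 0.05, a share below the 2.57% of all tested genes. This was *Rimbp2*, which links calcium channels to the release site, at -0.51 ± 0.19 (unadjusted p = 0.031). The gene with the smallest p among the higher ones was *Mcoln3*, a TRP relative of endosomes, at 0.26 ± 0.14 (unadjusted p = 0.105).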

How the data were processed

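The authors labeled 200 ng of total RNA of each hypothalamus with Cy3 and hybridized it to Agilent arrays. The deposited files hold the intensity of each spot from Agilent Feature Extraction 10.10.1.1, background-subtracted and corrected for gradients within the array, with a substitute value for weak spots. A log2 table of 34970 probes (72 of the channel probes) was deposited too, and the submitters' notes name limma. Its normalization is not stated in the sources read here. All deposited columns of sample values were mapped, and 0 were left unused.

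The analysis used limma 3.58.1 under R 4.3.3, and plots were made with matplotlib 3.10.9. Spots flagged as outliers were left out of the signal but not of the background flag, spots of a probe were averaged (59305 spots, 55681 probes), and log2 processed intensities were expressed relative to the array's 75th percentile. Probes with 4 or more of 8 arrays well above background were tested with lmFit and eBayes, two-sided, with Benjamini-Hochberg adjustment over all 37314 at 0.05. The fit was tested on simulated data. The brightest tested probe (highest mean) stood for its gene. Channel genes have the names that the arrays use, and other genes were named through RefSeq by accession (27235 probes), symbol (2312) or an older symbol (220). Intervals are 95% confidence intervals of limma, and the number of arrays limits their precision. P-values rest on the spread among these mice, whose litters are not known.

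Genes are named by a rule: for each of 10 subfamilies the higher and the lower gene with the smallest p, genes whose groups do not overlap, and 27 genes whatever their values. *Trpm1*, *Scn11a*, *Cacna2d4* and others outside the rule were chosen after their values were seen. Values of 4 channel genes are not reported here, and counts out of 52 genes include them. The members, gene lists and tests were chosen with earlier results of these data known. Alternatives were quantile or median scaling, normexp with an offset of 50, other filters and thresholds, the authors' table, the slide row as a block or alone, array weights, a variance model with trend and robust estimation, a random block for the digit before the dot of the mouse number, other probes of a gene, and leaving out each mouse. Marker lists of 12 tissues and cell types were measured, and the levels of 6 of them are given. Arrays of other brain regions were not analysed here.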

Additional observations from a re-analysis of the deposited data

Results flagged for a closer look

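In 6 of 96 groups of 4 mice (48 channel genes in both groups), 1 mouse stood apart from the other 3 of its group by more than Dixon's 95% critical value, the gap to its neighbor as a share of the range. Chance flags about 1 in 20 groups. *Cacna1h* was 1.39 in Stress 5.3 against 1.95 to 2.02 in the other Stress mice, and *Scn7a* was -4.36 in Stress 7.1 against -3.44 to -3.27. *Scn4a*, the sodium channel of skeletal muscle, was -2.54 in Stress 7.6 against -2.98 to -2.94. *Cacnb4* was 1.48 in Ctrl 6.2 against 1.57 to 1.58 in the other Ctrl mice, a small distance for a gene with little spread. Ctrl 8.5 stood apart in 2 of them: *Trpc4* was 0.36 against 0.13 to 0.15 and *Trpm8* was -3.12 against -5.15 to -4.90. The part of the meningeal markers of Ctrl 8.5, given above, in these values was not tested.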

How the results depend on the processing

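In each of 21 alternatives 0 channel probes passed an adjusted p of 0.05 (limma), as with the threshold at 0.10, and the smallest adjusted p of a channel probe, 0.435, came with a random block for the digit before the dot of the mouse number (estimated correlation -0.20). Of all tested probes 1 passed with this random block and 1 in slide row 2 alone. The number of channel probes at an unadjusted p under 0.05, 4 in the reported fit, was 9 with the random block (9.28% of all tested probes), 5 in slide row 1 alone (5.17%), 1 in slide row 2 alone (3.15%), 1 after normexp (1.32%), 2 with another variance model (2.66%) and 2 each without Ctrl 8.4 (2.91%), Ctrl 6.2 (3.33%) or Stress 7.6 (3.86%), against 3.3% in the reported fit. Leaving out each mouse in turn moved the median difference of the channel genes between -0.015 and 0.019, and 0 channel probes and 0 of all probes passed in each case. No paired analysis was possible because the groups share no mouse number.

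Of 675 values of 30 named genes under alternatives, 63 changed sign. The largest reported difference among the genes concerned was that of *Scn7a* (-0.17), and the cause was not tested. *Trpa1*, *Trpc7*, *Cacna1b*, *Cacna1c* and *Trpm8* kept their sign in all of them. Each had been named for the smallest p in its direction of its subfamily in the same mice, which makes a stable sign likely. Of the 52 channel genes 19 kept their sign in the settings with 8 mice, without each mouse and in both slide rows. In slide row 1 alone the signs turned for *Cacna1a* (0.0065), *Cacna1d* (0.063), *Cacna1e* (0.12), *Cacna1g* (0.047), *Scn1a* (-0.14), *Scn3a* (0.043), *Scn4b* (-0.36), *Scn7a* (0.12), *Trpm3* (0.037) and *Trpm6* (-0.11). In slide row 2 alone they turned for *Cacna2d1* (-0.014), *Cacnb4* (0.0051) and *Scn9a* (-0.089). With array weights they turned for *Cacna1d* (0.019), *Cacna1e* (0.020), *Cacna1g* (0.0010), *Scn1a* (-0.0039), *Scn3a* (0.023), *Scn4b* (-0.17) and *Trpm6* (-0.041). Without Ctrl 8.5 and Stress 7.6 together, a setting chosen after seeing the data, they turned for *Cacna1d* (0.035), *Cacna1e* (0.090), *Cacna1g* (0.062), *Scn1a* (-0.043), *Scn3a* (0.049), *Scn4b* (-0.30) and *Trpm6* (-0.083). Median scaling turned *Cacna1d* (0.0031) and *Scn3a* (0.0093), normexp turned *Cacna1d* (0.0075), *Cacna1e* (0.090) and *Trpm2* (0.00071), and the authors' table turned *Cacna1e* (0.0030) and *Scn1a* (-0.020). Other probes turned *Scn3a* (0.058 and 0.042), *Cacna2d1* (-0.049), *Cacnb2* (-0.0096), *Scn8a* (-0.091) and *Scn1a* (-0.032).

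Leaving out each mouse, the ranges that crossed 0 were -0.075 to 0.013 for *Cacna1a*, -0.051 to 0.027 for *Cacna1d*, -0.31 to 0.18 for *Cacna1e*, -0.13 to 0.088 for *Cacna1g*, -0.076 to 0.00048 for *Hcn3*, -0.077 to 0.10 for *Scn1a*, -0.036 to 0.034 for *Scn3a*, -0.23 to 0.29 for *Scn4b*, -0.28 to 0.081 for *Scn7a*, -0.020 to 0.055 for *Scn9a*, -0.050 to 0.011 for *Trpm2* and -0.090 to 0.095 for *Trpm6*. Values inside these ranges that also turned were 0.0079 and 0.0051 for *Cacna1a* without Stress 7.6 and Ctrl 8.2, 0.0093 for *Trpm2* without Stress 7.6, 0.025, 0.014, 0.022 and -0.053 for *Cacna1d*, *Cacna1e*, *Cacna1g* and *Trpm6* without Ctrl 8.2, -0.0031 for *Scn9a* without Ctrl 8.4, 0.0096 and 0.017 for *Scn3a* without Ctrl 8.5 and Ctrl 8.2 and -0.0036 for *Scn1a* without Stress 7.1. Dim probes limit *Cacna1c*, *Cacna1e*, *Trpm8* and *Trpv1*, which were not well above background on every array.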
